A study of Homo sapiens with 6 samples.

Results

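miR-122 was followed here through 1 of the 1007 rows of a table of vesicle miRNAs, the row named hsa-miR-122-5p, matched by name. The other arm, miR-122-3p, was not analysed here. The libraries came from extracellular vesicles (exosomes) that MHCC97H cells, a human hepatoma line of high metastatic potential, had released into their medium. Of the 6 libraries, 3 were controls and 3 came from cells exposed for 24 h to 4 µmol/L of xanthatin, which is a plant sesquiterpene lactone made by Xanthium. DMSO, the solvent, was at 0.5% in all experiments per the labels' protocols. Both groups shared 1 cell line and a medium that contained ordinary fetal bovine serum (5%) together with exosome-free serum (5%). A spin of 70 min at 120000xg collected the vesicles, and a gel step kept RNA between 18 and 30 nt long. The labels do not say whether the 3 libraries of a group came from separate cultures, so p-values measure the spread between these libraries, which may be technical.

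miR-122 is the main miRNA of hepatocytes and is scarce in most other tissues. In the liver it represses many transcripts, among them genes that other tissues use and the liver keeps low, and it supports cholesterol and lipid metabolism. Hepatitis C virus needs it to replicate, many liver tumours hold less of it than normal liver, and it appears in plasma after liver injury, both in vesicles and bound to Argonaute proteins. A miRNA finds its targets mainly through its seed, bases 2 to 8 from the 5′ end.

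The mature sequences below are from RefSeq (GRCh38.p14), 5′ to 3′, with the seed in capitals. They show the counted arm, the other arm of the same precursor, the miRNA on the opposite strand of the locus, and 2 other liver miRNAs whose values are set beside miR-122 further on.
hsa-miR-122-5p: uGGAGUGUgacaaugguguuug
hsa-miR-122-3p: aACGCCAUuaucacacuaaaua
hsa-miR-3591-3p: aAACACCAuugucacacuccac
hsa-miR-148a-3p: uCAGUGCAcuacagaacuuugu
hsa-miR-192-5p: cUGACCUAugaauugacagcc

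The precursor hairpin is shown with both mature arms in capitals, to place the counted arm at bases 15 to 36 of 85 and the other arm at bases 51 to 72.
MIR122 hairpin: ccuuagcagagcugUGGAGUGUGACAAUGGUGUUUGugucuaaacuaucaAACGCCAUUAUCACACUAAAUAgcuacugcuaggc

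The hairpin lies on chromosome 18, plus strand, from 58451074 to 58451158, and the counted arm from 58451088 to 58451109. In GENCODE release 29 (GRCh38) the hairpin falls within exon 2 of MIR122HG, a long noncoding RNA that serves as its host transcript. Among 2370 mature names in the RefSeq table, miR-122-5p was the 1 name with its seed, so no seed relative could stand in for it. By contrast, the seed of miR-148a-3p is shared with miR-148b-3p and miR-152-3p, and that of miR-192-5p with miR-215-5p. The nearest mature sequence, miR-3591-5p, is 5 edits away and was not analysed here. The nearest with a row in the table, miR-206 and miR-4483, are 8 edits away. The antisense miR-3591-3p covers 21 of the 22 bases on the opposite strand, and whether the counting used strand is not given in the sources used here. The mature sequence is conserved among mammals, so a count under this name does not tell a human molecule from one of the serum in the medium.

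miRNA counts per library were 63965 to 80088 in control and 204520 to 267956 in xanthatin libraries, so the shallowest xanthatin library held 2.55 times the counts of the deepest control library. Each comparison below therefore uses shares, scaled values or ratios within a library beside the raw count.

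miR-122-5p was one of the most abundant miRNAs of control vesicles and a minor one after xanthatin, and the change was larger than any spread between replicates. The deposited counts were 4316, 4535 and 2848 in control replicates 1, 2 and 3. They were 225, 236 and 218 in xanthatin replicates 1, 2 and 3. The groups did not overlap even before any scaling: the lowest control count was 12.1 times the highest xanthatin count, although the xanthatin libraries were deeper.

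As a share of all miRNA counts, it took 5.39% (exact Clopper-Pearson 95% interval 5.23 to 5.55), 6.46% (6.28 to 6.64) and 4.45% (4.29 to 4.62) in control replicates 1, 2 and 3. In xanthatin replicates 1, 2 and 3 the share was 0.0944% (0.0824 to 0.108), 0.0881% (0.0772 to 0.1001) and 0.107% (0.0929 to 0.122). With no molecular identifiers on the reads, these intervals describe counting error alone. The mean share was 5.43% ± 1.003 (SD, n = 3) in control and 0.0963% ± 0.0094 in xanthatin libraries, which is 56.4-fold lower. The difference of -5.34 percentage points gave p = 0.10 in a two-sided exact permutation test, the smallest value that 3 libraries against 3 allow. As a share of the counts of known miRNA names alone, the means were 6.01% and 0.122%, a smaller fold of 49.1.

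In rank by count among the 1007 rows, miR-122-5p stood at 4, 4 and 5 in the control libraries. It stood at 70, 69 and 70 in the xanthatin libraries. Its place was thus nearly the same within each group.

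The deposited TPM, which divides each count by a library total larger than the miRNA counts, gave 356, 457 and 303 in control replicates 1, 2 and 3. It gave 7.79, 7.41 and 8.11 in xanthatin replicates 1, 2 and 3. The group means were 372 ± 78.5 and 7.77 ± 0.354 TPM, 47.9-fold lower. TMM-scaled counts per 1000000 (CPM), whose library sizes are set so that most miRNAs keep their level, were 49953, 57299 and 37896 in the control group. After xanthatin they were 1065, 981 and 1211. On that scale the fold was 44.6. Raw counts gave the smallest fold, 17.2, as they ignore the depth of the libraries. Every scale placed the 3 control libraries above the 3 xanthatin libraries, and on the CPM scale 29.5% of the 254 tested miRNAs were likewise lower with no overlap between the groups.

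**Figure D1:**
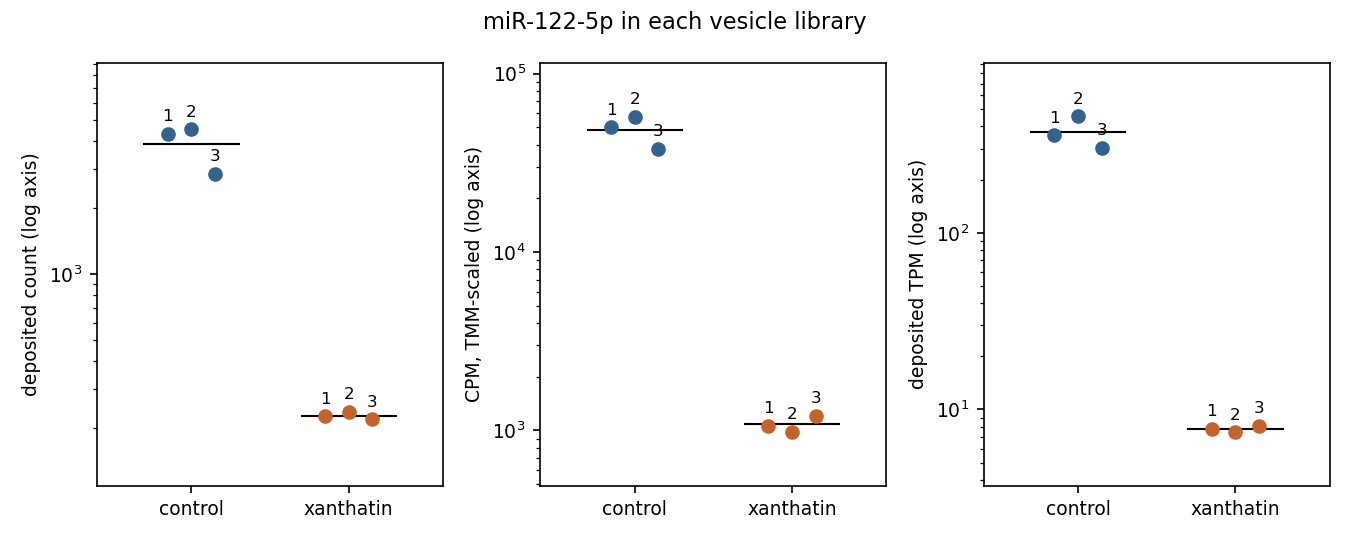
miR-122-5p in each library as deposited count, TMM-scaled CPM and deposited TPM, each on a log axis, with points numbered by replicate and a line at the group mean. In all 3 panels every control library lies far above every xanthatin library, and the xanthatin libraries lie close together.

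In the edgeR quasi-likelihood test over all tested miRNAs, miR-122-5p fell by 5.48 on the log2 scale (SE 0.21, adjusted p = 1.98e-05, n = 3 per group). It had the smallest adjusted p of the 254 tested miRNAs, shared with let-7f-5p. In that comparison 30.3% of tested miRNAs passed at an adjusted p under 0.05 in either direction, and 16.9% passed as lower after xanthatin. That balance of 34 higher and 43 lower calls moved with the scaling, to 22 and 60 with library totals only, 37 and 30 with no count filter, and 77 and 25 with the other hepatocyte miRNAs as library size. The median log2 fold change of all tested miRNAs was -0.16. Of the summed counts of the other hepatocyte miRNAs, most were of miR-148a-3p, itself at -1.29. With that sum as library size, the log2 fold change of miR-122-5p was -4.59. These are relative measures, so an absolute loss of miR-122 was not measured. Fewer vesicles that carry miR-122, less miR-122 in each vesicle and more of the other miRNAs beside it cannot be told apart.

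Within the control group the share varied by 18.5% of its mean, and replicate 3 was the lowest and replicate 2 the highest. Within the xanthatin group it varied by 9.77%. Counting error was 1.48% to 1.87% of the count in control and 6.51% to 6.77% in xanthatin libraries, where the counts were lower.

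Among the tested miRNAs, 9 had a lower fitted log2 fold change than miR-122-5p, but they were scarcer in control libraries, at 227 to 5199 CPM. Of these, 6 had 0 counts in every xanthatin library, where 3 counts over the group equal 4.75 CPM. Of the 18 tested miRNAs with a control mean of at least 10000 CPM, miR-122-5p had the lowest log2 fold change, followed by miR-365a-5p at -4.08. Of the 75 with at least 1000 CPM, only miR-6529-5p was lower, at -6.66 (-8.41 without xanthatin replicate 1, which held 26 of its counts against 4 and 2 in the others). miR-143-3p, a miRNA of smooth muscle and fibroblasts, was the third of these, at -4.26 (SE 0.54).

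**Figure D2:**
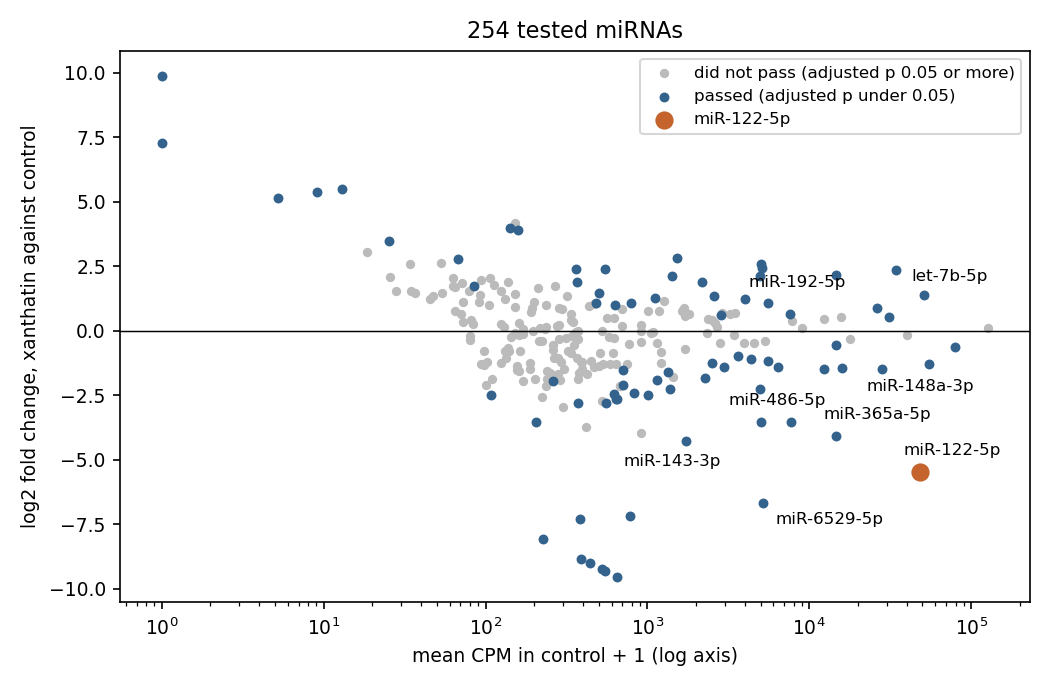
Log2 fold change of xanthatin against control for the 254 tested miRNAs against mean CPM in control plus 1 on a log axis, with miRNAs that passed in blue and miR-122-5p in orange. miR-122-5p stands at the lower right, as one of the most abundant miRNAs and the one with the lowest log2 fold change above 10000 CPM.

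Because each library sums to 100%, the loss of an abundant miRNA raises the shares of the others. Summed over all rows whose mean share was lower in xanthatin libraries, the falls came to 36.3 percentage points. miR-122-5p made up 5.34 points, or 14.7% of them, the largest part of any row, ahead of miR-92a-3p with 4.43 points. Taking every miR-122-5p count out of the control library with the highest share would raise each other share there 1.07-fold.

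In control libraries the known miRNAs next to it in mean abundance were let-7b-5p (51004 ± 7438 CPM) and miR-423-5p (40300 ± 4841 CPM), around 48383 ± 9796 CPM for miR-122-5p. These neighbours did not differ beyond their spread. let-7b-5p, a member of the growth-restraining let-7 family, rose, with a log2 fold change of 1.37 (SE 0.14, edgeR adjusted p = 9.27e-04). miR-423-5p, often used as a reference, was at -0.18 (edgeR adjusted p = 0.242). In xanthatin libraries its neighbours were miR-371a-3p (1129 ± 239 CPM) and miR-30c-5p (1064 ± 169 CPM), around 1086 ± 116 CPM for miR-122-5p, again within their spread. For each let-7b-5p count the control libraries held 0.890, 1.05 and 0.892 miR-122-5p counts. The xanthatin libraries held 0.00740, 0.00843 and 0.00890.

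Other miRNAs enriched in hepatocytes gave 3 calls, of which the 1 upward call changed with the processing. The list of 11 names matched 13 rows, of which 9 had enough counts to be tested. Of these, 3 fell (miR-122-5p, miR-148a-3p and miR-483-5p), 1 rose (miR-192-5p) and 5 did not pass, beside 16.9% lower and 13.4% higher of all tested miRNAs. The median log2 fold change of the tested members was -1.29, and -0.83 without miR-122-5p, beside -0.16 for all tested miRNAs. The next lowest tested members after miR-122-5p were miR-483-3p at -2.09 (edgeR adjusted p = 0.052) and miR-194-3p at -1.80 (edgeR adjusted p = 0.0585), neither of which passed. miR-483-3p had few counts, 8, 8 and 8 in control and 4, 4 and 6 in xanthatin replicates 1, 2 and 3. The other members that did not pass were miR-215-5p at -0.38 (edgeR adjusted p = 0.936), miR-378a-3p at 0.997 (0.178) and miR-194-5p at 1.67 (0.338). The 2 arms of miR-194 thus had fitted values of opposite sign, neither of which passed. miR-194-5p had an SE of 1.22, with 41, 12 and 0 counts in control replicates 1, 2 and 3. The rows below the count filter were miR-101-3p, miR-148a-5p, miR-378a-5p and miR-885-5p. miR-885-5p, a liver miRNA used as a plasma marker, had 15 counts in control replicate 1 and 0 in every other library.

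**Figure D3:**
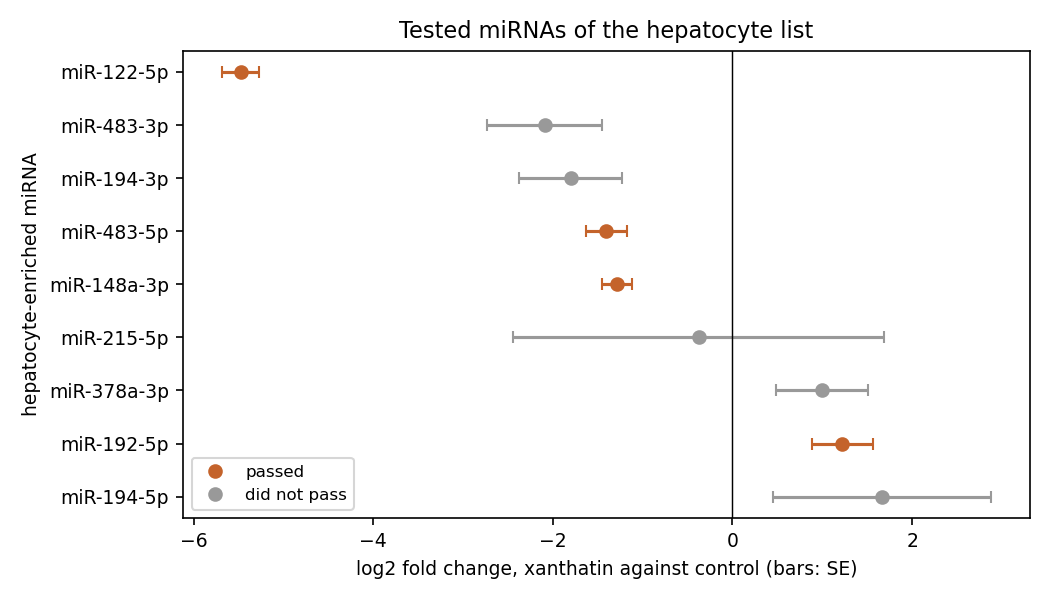
Log2 fold change of xanthatin against control with its SE for the 9 tested rows of the hepatocyte list, in orange where the adjusted p was under 0.05 and grey otherwise. miR-122-5p lies at -5.48, apart from the other 8, which lie between -2.09 and 1.67.

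miR-148a-3p, a liver miRNA that acts on DNA methyltransferase transcripts, was at 54885 ± 9121 CPM in control libraries, within the spread of miR-122-5p there. The count of miR-122-5p per count of miR-148a-3p was 1.12, 0.968 and 0.621 in control replicates 1, 2 and 3. It was 0.0471, 0.0514 and 0.0471 in xanthatin replicates 1, 2 and 3. The ratio thus dropped although miR-148a-3p itself had a log2 fold change of -1.29.

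miR-192-5p, a miRNA of liver, gut and kidney epithelium that responds to p53, changed places with miR-122-5p. Control replicates 1, 2 and 3 held 10.4, 11.3 and 18.5 counts of miR-122-5p per count of miR-192-5p. Xanthatin replicates 1, 2 and 3 held 0.122, 0.105 and 0.124. miR-122-5p was the more abundant of the pair in every control library and the less abundant in every xanthatin library. The rise of miR-192-5p (log2 fold change 1.22, SE 0.34, edgeR adjusted p = 0.0399) did not hold when control replicate 1 or one of the xanthatin replicates was left out (adjusted p = 0.0823 to 0.0943), nor with upper-quartile factors (adjusted p = 0.0556) or library totals only (adjusted p = 0.0791).

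miR-483-5p, whose precursor sits inside the IGF2 gene, gave ratios of 9.22, 8.74 and 5.33 miR-122-5p counts per count in control replicates 1, 2 and 3. The ratios were 0.428, 0.534 and 0.419 in xanthatin replicates 1, 2 and 3. Although miR-148a-3p and miR-483-5p fell too, both ratios were lower in all 3 xanthatin libraries than in any control library.

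Against 14 names reported as lowered in hepatocellular carcinoma, among them miR-122 itself, the table held 18 rows, of which 6 were tested. miR-122-5p was the 1 member that fell and 0 rose, a share near the 16.9% of all tested miRNAs that passed as lower. miR-99a-5p, a repressor of the mTOR pathway, had 9048 ± 830 CPM in the control group and 9855 ± 509 CPM in the xanthatin group. miR-29a-3p, which acts on collagen transcripts, was at 1715 ± 397 and 1047 ± 343 CPM (log2 fold change -0.71, edgeR adjusted p = 0.148). The median log2 fold change of the 5 tested members other than miR-122-5p was -0.0047, beside -0.16 for all tested miRNAs.

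In the list for blood cells and serum, some members were lower in xanthatin libraries and others were not. In the list for stroma, vessel and muscle, every row had a lower mean CPM there, though many held few counts. Whether these miRNAs came from the cultured cells themselves was not tested. Of 8 rows for blood cells and serum, 2 were tested and 1 fell (16.9% of all tested miRNAs did), miR-486-5p, which red blood cells hold in quantity, with a log2 fold change of -3.52 (SE 0.33). The list took 0.638% to 1.21% of control counts and 0.069% to 0.0841% of xanthatin counts. miR-486-5p alone made up 94.3% to 98.2% of the list's control counts and 66.9% to 87.4% of its xanthatin counts. The other tested row, miR-16-2-3p, was at -0.65 (edgeR adjusted p = 0.542). miR-16-5p, below the count filter, had 4, 4 and 2 counts in the control group and 3, 29 and 31 in the xanthatin group. miR-451a, a defining marker of red blood cells, was near 0 throughout, with 1, 3 and 2 counts in the control group and 1, 9 and 0 in the xanthatin group. The leukocyte markers were also at or near 0: miR-142-5p had 0 counts in control, miR-223-5p and miR-150-5p had 0 in xanthatin libraries, and the largest count of any of them was 11.

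Of 11 rows for stroma, vessel and muscle, 4 were tested and 3 fell (16.9% of all tested miRNAs did): miR-143-3p, miR-10b-5p and miR-1-3p, the last a muscle miRNA. The other tested row, miR-126-3p, was at -1.86 (edgeR adjusted p = 0.075) and did not pass. The median log2 fold change of the 4 was -1.89, beside -0.16 for all tested miRNAs. The list took 0.443% to 0.607% of control counts and 0.0664% to 0.0953% of xanthatin counts. miR-133a-5p, miR-145-3p, miR-145-5p and miR-214-3p were at 0 in xanthatin libraries. In control libraries they were at or near 0 too, except for 39 counts of miR-214-3p in replicate 1. miR-206, another muscle miRNA, had its highest count, 21, in xanthatin replicate 1. What part serum or other cells had in the fall of miR-122-5p was not tested.

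Ratios within a library need no scaling, and 5 lists were used as partners, with the counts of each list summed without miR-122. Per count of the reference list (both arms of miR-423, miR-191 and miR-25, with miR-103a-3p and miR-93-5p), there were 0.572, 0.748 and 0.539 miR-122-5p counts in control replicates 1, 2 and 3. There were 0.0137, 0.0125 and 0.0153 in xanthatin replicates 1, 2 and 3, a difference in mean log2 ratio of -5.48. With edgeR and TMM scaling 0 of the 8 tested rows of that list passed, and 2 of them, miR-25-3p and miR-191-5p, had an unadjusted p under 0.05 (0.0158 and 0.0423). The list was less steady under other processing. miR-25-3p passed as higher under 12 of 25 alternatives (log2 fold change 0.54 to 1.41, adjusted p = 9.94e-04 to 0.0485), DESeq2 among them at 0.68. With library totals only, miR-423-5p (-0.52, adjusted p = 0.00463) and miR-423-3p (-0.66, adjusted p = 0.0253) passed as lower.

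Per count of the other hepatocyte miRNAs, there were 0.872, 0.784 and 0.525 miR-122-5p counts in control replicates 1, 2 and 3. There were 0.030, 0.0309 and 0.0298 in xanthatin replicates 1, 2 and 3, a difference of -4.56. miR-148a-3p alone held 3837, 4684 and 4589 of the 4950, 5782 and 5425 list counts in control replicates 1, 2 and 3. In xanthatin replicates 1, 2 and 3 it held 4776, 4595 and 4626 of 7508, 7647 and 7310. This ratio is therefore not independent of the one with miR-148a-3p. Against the list lowered in hepatocellular carcinoma the difference was -5.44. Most counts of that list were of miR-99a-5p in every library, as with 863 of 1191 in control replicate 1. The blood and serum list gave the smallest difference, -2.33, with 4.47, 10.1 and 5.40 miR-122-5p counts per list count in the control group and 1.18, 1.28 and 1.27 in the xanthatin group. In control libraries that ratio is close to the one with miR-486-5p alone (4.55, 10.5 and 5.73), given its weight in the list. In xanthatin libraries, where miR-486-5p held less of the list, it is lower than the one with miR-486-5p alone (1.35, 1.70 and 1.90). The list of stroma, vessel and muscle gave -3.05. In all 5 lists the 3 xanthatin ratios lay below the 3 control ratios, with p = 0.10 each in the exact permutation test (0.10 adjusted over the 5), the smallest that this design allows.

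**Figure D4:**
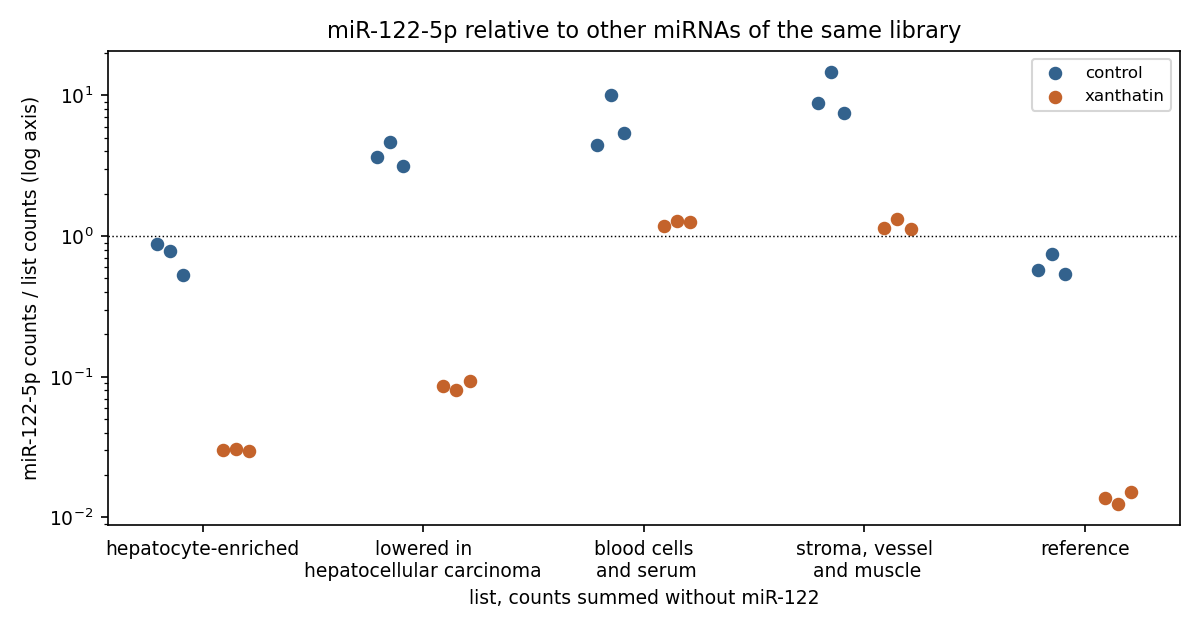
miR-122-5p counts divided by the summed counts of each of 5 lists in the same library, on a log axis, with control libraries in blue and xanthatin libraries in orange. Xanthatin libraries lie below control libraries for every list, by the least for blood cells and serum. The ratio stays above 1 for that list and for stroma, vessel and muscle.

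The known miRNAs whose levels were most like miR-122-5p were ranked by Pearson's r of log2(CPM + 1) over the 6 libraries. The libraries fall into 2 groups, so r mostly ranks how cleanly a miRNA separates them, and it is given as a description. The first 5 were miR-493-5p (r = 0.996), miR-4658 (0.994), miR-365a-5p (0.993), miR-432-5p (0.992) and miR-10b-5p (0.992). miR-493-5p, miR-4658 and miR-432-5p had 0 counts in every xanthatin library and 8 to 58 counts in control libraries, far fewer than miR-122-5p.

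Of these 5, miR-365a-5p was the 1 that was also abundant, at 14646 ± 2428 CPM in the control group and 863 ± 206 CPM in the xanthatin group. Its counts were 1390, 1267 and 890 in control replicates 1, 2 and 3. In xanthatin replicates 1, 2 and 3 they were 138, 256 and 157. Control replicate 3 was the lowest for it, as for miR-122-5p. The 2 kept a close ratio in control, at 3.11, 3.58 and 3.20 miR-122-5p counts per count of miR-365a-5p. In xanthatin libraries the ratio was 1.63, 0.922 and 1.39, so miR-122-5p had dropped further in each of them. Per count of miR-486-5p, the ratio was 4.55, 10.5 and 5.73 for the control group and 1.35, 1.70 and 1.90 for the xanthatin group, without overlap; this pair is not independent of the blood and serum list.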

How the data were processed

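Small RNA libraries of 6 vesicle samples were analysed, 3 per group. Per the file headers, the authors deposited a count and a TPM value per library for each miRNA name. The deposited count columns held raw whole numbers. The deposited TPM was the count per 1000000 of a larger library total (9408297 to 12130988 in control, 26867789 to 31859012 in xanthatin libraries), with no length term. The submitters' processing notes name hg38; an aligner or counter is not given in the sources used.

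Counts were fitted with edgeR 4.0.16 in R 4.3.3 (quasi-likelihood F test on group, TMM, count filter with a minimum of 10), with Benjamini-Hochberg adjustment over the 254 miRNAs that passed the filter and a threshold of 0.05. The fit was tested on simulated data, where it missed most true log2 fold changes of 1 or 2. A miRNA that did not pass may therefore still have changed. SEs were obtained as |log2 fold change|/√F. Shares and ratios were compared by two-sided exact permutation tests. Alternatives used limma 3.58.1 and DESeq2 1.42.0.

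The miRNA, the 5 lists and the named miRNAs were chosen with earlier results of these data known. Named were the 10 most abundant known miRNAs in control, of which those that bear on miR-122-5p are described, its neighbours in abundance, the 5 with the highest r, the 3 with at least 1000 CPM in control and the nearest log2 fold change, and, from each list, the 2 members with the highest mean CPM. Other list members were named after their values were seen. Of 504 known names, 451 matched the RefSeq table. No replicate pair was alike within sampling noise (chi-square per degree of freedom 16.1 to 21.3).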

Additional observations from a re-analysis of the deposited data

How the results depend on the processing

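The fall of miR-122-5p passed under all 25 alternatives to its fit, with log2 fold changes of -5.82 to -4.59 and adjusted p of 5.57e-203 to 0.00134. It was -5.82 with library totals only and -4.59 with the other hepatocyte miRNAs as library size. Leaving out 1 library gave -5.58 to -5.24. The median log2 fold change of all tested miRNAs moved from -0.16 to -0.49 with library totals only, 0.60 with no count filter and 0.78 with the hepatocyte list as library size. Relative to that median, miR-122-5p was at -5.33, -5.79 and -5.37. The number of miRNAs called was 77, 56 to 69 with 1 library left out, 49 with known names only, where fewer were tested, 100 with DESeq2 and 102 with the hepatocyte list as library size. The share differed by -5.83 to -4.82 points with 1 library left out. The log2 ratios ranged from -4.77 to -4.41 (hepatocyte list), -5.57 to -5.28 (lowered in hepatocellular carcinoma), -2.58 to -1.99 (blood and serum), -3.26 to -2.78 (stroma) and -5.57 to -5.33 (reference).

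Same-numbered libraries did not deviate together (r = 0.089, -0.077 and -0.14 for numbers 1, 2 and 3), so the number was not taken as pairing. With the replicate block miR-122-5p was at -5.46 (adjusted p = 0.00134) and 54 miRNAs were called, without miR-192-5p (adjusted p = 0.0715), and not every library correlated best with its own number.

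For the 24 other named miRNAs, 551 alternative values kept the direction and the side of the threshold, 21 newly passed it, 15 no longer passed and 10 changed sign. Library totals only turned miR-151a-3p (-0.24), miR-30c-5p (-0.13) and miR-99a-5p (-0.22). Thinning to equal totals turned miR-151a-3p (-0.022), and no count filter turned miR-423-5p (0.11). The call of miR-151a-3p, at 0.10 in the main fit (edgeR adjusted p = 0.363), depended on the processing. It passed as lower with library totals only (edgeR adjusted p = 0.0296). It passed as higher with no count filter (0.38, edgeR adjusted p = 0.0117) and with DESeq2 (0.27, adjusted p = 0.0082), among others. With the hepatocyte list as library size miR-92a-3p (0.27), miR-423-5p (0.72), miR-423-3p (0.57), miR-29a-3p (0.17) and miR-16-2-3p (0.18) turned. Thinning and the fit without novel550_mature were chosen after seeing the data. With 3 libraries against 3, the permutation tests cannot go below 0.10.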
